A study of Mus musculus with 2 samples.

Results

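The genes for the proteins of the cytosolic ribosome were examined in single cells of mouse retinal pigment epithelium (RPE) and choroid. They were taken by symbol alone, as every gene named Rpl or Rps with a number, with Rplp0, Rplp1, Rplp2 and Rpsa. This rule found 83 of the 32285 genes in the deposited gene lists, 51 of the large and 32 of the small subunit. In called cells 82 of the 83 had a UMI (unique molecular identifier, 1 per captured RNA molecule) in each library, and Rpl10l had 0.

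Each genotype was 1 library from 1 male and 1 female mouse aged 10 weeks, pooled. The Tsc1 RPE KO library (Tsc1tm1Djk/J; Best-Cre) carried the floxed Tsc1 allele and the Cre transgene Best-Cre, described in the labels as specific to the RPE, and the Tsc1 flox library (Tsc1tm1Djk/J) carried the floxed allele without Cre. The retina was removed, the eye cups were digested, and live cells were sorted before droplet sequencing of 3′ ends. Since each genotype was a single library, the genotypes could not be tested against each other and no p-value is given. The printed intervals are exact 95% intervals that cover counting error only, not the spread between mice, pools or preparations.

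The cytosolic ribosome is built of a small and a large subunit, and its proteins are needed in near equal numbers. Most of their mRNAs, and those of elongation factors, begin with a C followed by a run of pyrimidines, the 5′ terminal oligopyrimidine (TOP) motif, through which mTORC1 favours their translation. Tsc1 is a subunit of the complex that restrains mTORC1. mTORC1 is known to act on these mRNAs mainly at the level of translation, which UMI counts do not measure.

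The starts of the members that the results turn on are shown to compare those with and without 1 of 3 short pyrimidine motifs. Each window holds 30 bases on the strand of the gene, 5 before and 25 from the start that RefSeq annotates on GRCm38.p6. Capitals mark a match to the letters CTTTC, the variant CTTCC, or else the variant CTTTT, whatever bases stand before it. Windows without a match can still hold other short pyrimidine runs. The search covered the gene's strand only.
Rps6: cgggcctCTTTTtcgtgacgcctcccaggc
Rpl12: gatccgtCTTTTcggCTTTCggctcggagg
Rps15a: gccatCTTCCctcgccggtgagtgagtgtt
Rps27: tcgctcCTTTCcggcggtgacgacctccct
Rpl22l1: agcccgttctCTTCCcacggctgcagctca
Rpl41: ggctcggaagtgacgacaccgagcacgcca
Rpl22: gaaaagcaatagctggccgatcgttactta
Rps27l: ccgccgcctctatcccggaagttgctgagg
Rpl3l: gctctgtcatttgacctctggtgcctggtg
The windows lie at chr4:86857343-86857372 for Rps6 (minus strand), chr2:32961707-32961736 for Rpl12 (plus), chr7:118116123-118116152 for Rps15a (minus), chr3:90213624-90213653 for Rps27 (minus) and chr3:28805503-28805532 for Rpl22l1 (plus). They lie at chr10:128549144-128549173 for Rpl41 (minus), chr4:152325721-152325750 for Rpl22 (plus), chr9:66946081-66946110 for Rps27l (plus) and chr17:24727821-24727850 for Rpl3l (plus). Of the 63 members with a RefSeq window, 26 (41.3%) held a match, against 3717 of 27025 genes overall (13.8%). In these counts a gene held a match if any of its RefSeq starts did, while the windows above show 1 start per gene. A window without a match says only that these letters are absent at the start shown.

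After filters, 1849 cells were kept for Tsc1 RPE KO, at a median of 4614 UMIs, and 1525 for Tsc1 flox, at a median of 4532 UMIs. They fell into 19 clusters, each named from its markers, and "-like" marks a class rebuilt here from clusters. Results are given for the 10 classes with at least 10 cells in each library. RPE-like cells had UMIs of 8 of 9 RPE markers in each library. No Tsc1 UMI was seen in RPE-like cells (0 in each library), which allowed up to 26.0 CPM (counts per 1000000 UMIs of the class) in Tsc1 RPE KO and 93.5 CPM in Tsc1 flox. The 3′ tag was in any case no check of the knockout, since the labels do not give the deleted exons. Cluster 4, nonclassical monocyte-like, held 261 Tsc1 RPE KO and 30 Tsc1 flox cells and stood apart by library. Between the cells of both libraries 2 barcodes were shared.

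Ribosomal protein mRNAs took up a very different part of each cell class, and the order of classes was close to the same in both libraries. Among the 10 classes RPE-like cells were lowest, with 4.63% (4.51 to 4.75) of UMIs in Tsc1 RPE KO and 4.44% (4.22 to 4.67) in Tsc1 flox. T cell-like cells were highest, with 33.4% and 35.7%, and B cell-like cells followed with 29.6% and 28.4%. Rod-like cells held 6.02% and 6.89%, fibroblast-like cells 7.54% and 8.07%, and endothelial-like cells 7.66% and 7.82%. A middle group held between 16.2% and 20.2%, with nonclassical monocyte-like, mast cell-like, natural killer (NK) cell-like and classical monocyte-like cells. Within that group neighbouring classes differed by little, and mast cell-like cells numbered only 11 and 13. Outside the 10 classes, erythroid-like cells held 3.39% (2 cells) and 0.251% (10 cells), and pericyte or smooth muscle-like cells 5.86% (5 cells) and 4.18% (9 cells).

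**Figure D1:**
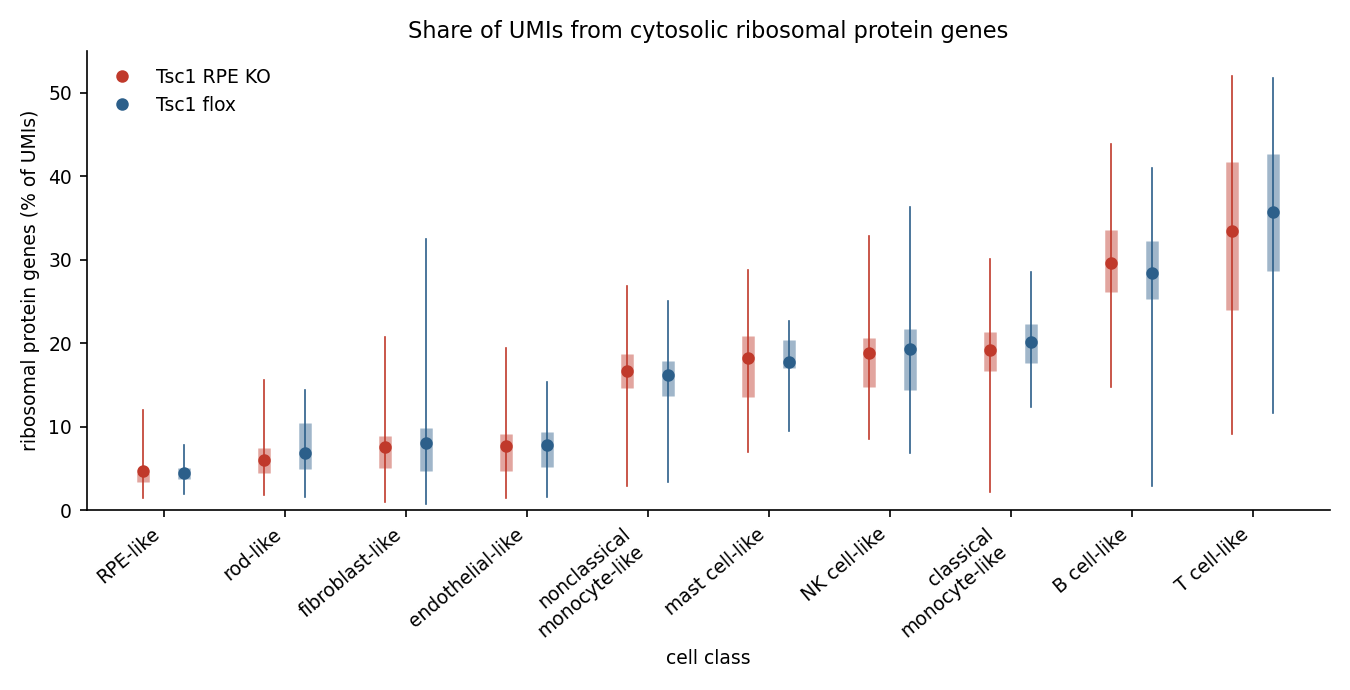
Share of UMIs from the 83 ribosomal protein genes (percent, vertical axis) by cell class (horizontal axis), Tsc1 RPE KO left and Tsc1 flox right in each pair. Points are the share of the summed UMIs, thick bars run between the quartiles over cells and thin lines between the lowest and highest cell. RPE-like cells lie near 4% and T cell-like cells near 33% to 36% in both libraries.

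The difference was in the number of ribosomal protein UMIs per cell as well as in their share. The median RPE-like cell had 78 such UMIs in Tsc1 RPE KO and 118 in Tsc1 flox, beside 2117 and 2488 UMIs of other genes. The median T cell-like cell had 1711 and 1955.5, beside 3381.5 and 3577 of other genes. When each cell was thinned to 1000 UMIs, with 0 cells left out, a median of 26 and 29.5 members was seen per RPE-like cell and 72 in each library per T cell-like cell. Unthinned, these medians were 45 and 56 for RPE-like cells and 78 in each library for T cell-like cells.

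RNA free in the suspension, profiled from barcodes of 10 to 100 UMIs, held 14.2% ribosomal protein UMIs in Tsc1 RPE KO and 16.3% in Tsc1 flox. That lay above the level of RPE-like, rod-like, fibroblast-like and endothelial-like cells and below that of lymphocyte-like cells. With 10% of each class's UMIs removed as free RNA, RPE-like cells held 3.47% and 3.01%, and T cell-like cells 34.9% and 37.0%. The part of free RNA in each class was not measured directly.

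On the CPM scale nearly every member shared in these differences. CPM counts 1 tag per captured 3′ end, is not scaled by length, and can differ between genes by capture. In T cell-like cells 78 of 81 measured members were at least 1.5-fold above the mean of the other classes in both libraries, where 8.31% of 12040 genes were, and 1 was lower (39.9% of genes). The 3 not higher were Rps27l, Rpl3l and Rpl7l1, all second copies of a subunit gene. In B cell-like cells 68 of 81 were higher, against 9.02% of genes, and 1 was lower, against 40.3%. In RPE-like cells 73 of 81 were lower, but 55.1% of all genes were lower there too. In rod-like cells 74 were lower (36.1% of all genes), and in fibroblast-like and endothelial-like cells 72 each (22.2% and 27.4%). None was higher in these 4 classes (0 of 81 in each), where 9.29%, 24.3%, 26.8% and 19.2% of all genes were, in the order RPE-like, rod-like, fibroblast-like and endothelial-like. The other 4 classes lay between. Mast cell-like cells had 4 members higher (7.39% of genes) and 7 lower (50% of genes), and nonclassical monocyte-like cells 1 higher (11.8%) and 1 lower (37.9%). Classical monocyte-like cells had 6 higher (10.5%) and 0 lower (39.6%), and NK cell-like cells 0 higher (9.85%) and 1 lower (35.4%).

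Single members show the ends of this ladder of classes, though not always its order between them. Rps6, the S6 kinase substrate of the small subunit, stood at 295 CPM (204 to 412) in Tsc1 RPE KO and 312 CPM (149 to 573) in Tsc1 flox in RPE-like cells, and at 1591 and 1805 CPM in T cell-like cells. Rpsa, a small subunit protein also known as the laminin receptor, stood at 433 and 280 CPM in RPE-like cells and at 5919 and 6254 CPM in T cell-like cells. Rplp0, which carries the stalk of the large subunit, stood at 355 and 187 CPM in RPE-like cells and at 5842 and 5956 CPM in T cell-like cells. The Tsc1 RPE KO values of RPE-like cells include a mixed barcode, described with the genotypes, that gave 1197 of their 5343 member UMIs. The intervals of RPE-like and T cell-like cells did not overlap for Rps6, Rpsa or Rplp0 in either library. Between these ends Rps6 stood at 475 and 432 CPM in rod-like cells, and lower in fibroblast-like cells, at 365 and 398 CPM.

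The clusters of T cell-like cells differed among themselves. Cluster 5, led by Cd4, Tcf7 and Lef1, held 39.1% ribosomal protein UMIs in Tsc1 RPE KO and 39.2% in Tsc1 flox. Cluster 8, led by Cd8b1, Dapl1 and Cd8a and also by Lef1 and Tcf7, held 42.2% and 41.5%. Cluster 10, led by Cxcr6, Gzmk and Xcl1, held 21.8% and 25.1%, and cluster 12, led by the proliferation genes Hist1h2ap, Pclaf and Top2a, held 23.1% and 24.99%. Tcf7 and Lef1 are transcription factors of resting T cells, and Gzmk encodes a granzyme of effector cells. The grouping of clusters 5 and 8 against 10 and 12 was made after these shares were seen, and no test is given.

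Across clusters 5 and 8, set against clusters 10 and 12, 59 of 80 measured members were at least 1.5-fold higher in both libraries, where 4.75% of 6632 genes were. The median member was 1.77-fold higher in Tsc1 RPE KO and 1.57-fold higher in Tsc1 flox. Since the clusters were put on each side after their summed shares were seen, this count and these medians largely restate those shares. Setting the count beside 4.75% of genes is therefore no separate evidence about the members as a set. Only the differences between single members go beyond the grouping. Rps20, a small subunit protein, had the highest ratio, 2.67 (2.56 to 2.79) and 2.19 (2.097 to 2.29). Rpl12, of the stalk base of the large subunit, followed with 2.65 (2.47 to 2.83) and 2.13 (1.99 to 2.28). Rps27l went the other way, with ratios of 0.395 (0.310 to 0.503) and 0.478 (0.366 to 0.626), and was the only member at least 1.5-fold lower in both libraries, where 21.8% of genes were. For Rpl7l1 the ratios were 0.9003 (0.602 to 1.36) and 0.995 (0.628 to 1.61).

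Rod-like cells also held clusters that differed. Cluster 15, with Gngt1 and Pde6g among its leading genes, held 9.48% and 10.7%, at median depths of 2060.5 and 1765 UMIs. Cluster 9, led by Rp1 and Sag, held 5.75% and 5.47%, at 2982.5 and 3004 UMIs. The libraries mixed these clusters differently, with 156 cells of cluster 9 and 20 of cluster 15 in Tsc1 RPE KO, and 25 and 17 in Tsc1 flox.

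**Figure D2:**
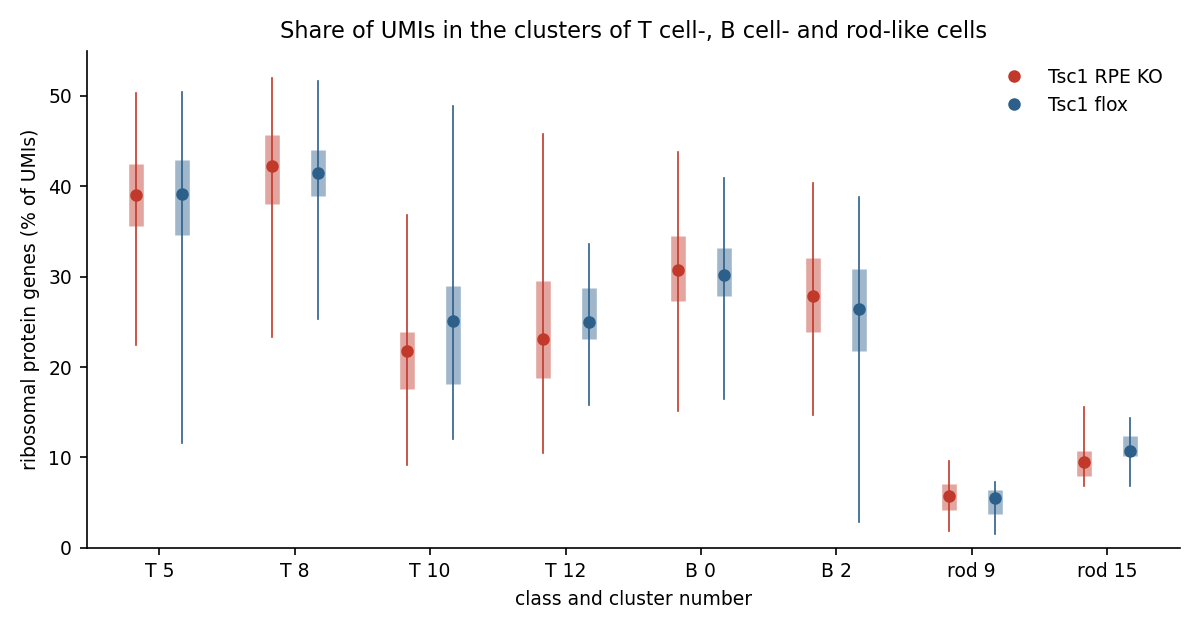
Share of UMIs from ribosomal protein genes (percent, vertical axis) in the clusters of T cell-like, B cell-like and rod-like cells (horizontal axis), Tsc1 RPE KO left and Tsc1 flox right in each pair. Points are the share of the summed UMIs, thick bars run between the quartiles over cells and thin lines between the lowest and highest cell. T cell-like clusters 5 and 8 lie near 39% to 42% and clusters 10 and 12 near 22% to 25%.

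Whatever their sum, the profiles of the members resembled each other between classes, while many single members shifted. The profile, the share of all member UMIs that each member held, correlated between the libraries within a class at a median Pearson r of 0.993 over the 10 classes (0.795 to 0.998). Between classes of the same library the median r was 0.922 over 90 pairs (0.654 to 0.989). These r values are across genes, which are not independent replicates, and the lowest value within a class was that of the few RPE-like cells. Since levels differ widely between members, r can be high while single members shift. Set against the mean of the other classes, 27 of 83 members had intervals above 1 in T cell-like cells in both libraries, and 40 below 1. These counts were 25 and 38 in B cell-like cells, and 9 and 11 in endothelial-like cells, which had fewer UMIs. Rps29 led the members over all cells with a mean of 3.70% of member UMIs, ahead of Rps24 (3.28%), Rps27 (3.11%), Rps28 (2.29%) and Rpl37a (2.21%). Most member UMIs come from T cell-like and B cell-like cells. With the 10 classes weighted equally Rps29 (3.48%) and Rps24 (2.87%) still led, and Rpl41 (2.76%) came ahead of Rps27 (2.73%), Rpl37a (2.23%) and Rps28 (2.04%). Over all cells the 20 leading members together held 41.8%. The lowest detected members over all cells were Rpl39l, Rpl3l, Rpl7l1, Rps27l and Rpl31. With classes weighted equally Rpl23a (0.290%) lay below Rpl31 (0.309%). Small subunit genes gave 42.1% and 41.4% of member UMIs in RPE-like cells and 47.2% and 47.7% in T cell-like cells.

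In RPE-like cells Rpl41 stood out. Rpl41 encodes a very short, basic protein of the large subunit. It had 358 UMIs in 42 of 45 cells in Tsc1 RPE KO and 91 UMIs in 12 of 12 cells in Tsc1 flox. It held 6.70% of member UMIs in Tsc1 RPE KO and 6.38% in Tsc1 flox, against a mean of 2.30% and 2.38% in the other classes. The ratios were 2.92 (2.63 to 3.22) and 2.68 (2.17 to 3.27). Without a mixed barcode, described with the genotypes, Rpl41 held 7.55% in Tsc1 RPE KO. In free RNA Rpl41 held 1.43% and 1.58% of member UMIs, so its share was well below that of RPE-like cells. No other gene overlaps it in the annotation used.

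Rps15a, a small subunit protein, was also higher in the RPE-like profile, at 2.68% and 2.95%, against 1.64% and 1.61% in the other classes. Rps23, which lies at the decoding centre, was lower there, at 0.936% and 0.561%, against 1.55% and 1.57%. Rplp0 was lower, at 0.767% and 0.421%, against 1.29% and 1.22%, and so was Rpl13, at 1.38% and 1.05%, against 2.09% and 2.08%. All of these ratios had intervals on the same side of 1 in both libraries. Of the 83 members, 7 had intervals above 1 in RPE-like cells in both libraries and 7 had intervals below 1. These Tsc1 RPE KO values include the mixed barcode, and values without it are not given here.

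Profiles of other classes departed from the mean as well, and some members did so in more than 1 class. In classical monocyte-like cells Rplp0 was 1.60-fold (1.55 to 1.64) and 1.62-fold (1.57 to 1.66) the mean of the other classes, and Rps9 1.53-fold and 1.56-fold. Rps9 was also 1.55-fold and 1.63-fold in mast cell-like cells, and Rplp0 1.48-fold and 1.54-fold in T cell-like cells. Classical monocyte-like cells also held UMIs of 6 of 7 conventional dendritic cell markers, which summed to 146 and 230 CPM, against 0.986 to 116 CPM in the other classes where any was seen. At a minimum of 1000 UMIs 46 and 62 cells kept the name of classical monocyte-like, against 131 and 121 here. An unnamed cluster of 89 and 60 cells, led by Cd209d and, among others, Clec10a and Flt3, then stood beside them. The part of such cells in this profile was not tested. Rplp1, a stalk protein that is carried by Rplp0, was 0.631 and 0.558 of the mean of the other classes in classical monocyte-like cells. In nonclassical monocyte-like cells it was 0.648 and 0.636. Rpl12 was 1.90-fold higher in T cell-like cells in each library, and 1.49-fold in B cell-like cells in each library. Rps27, a zinc-finger protein of the small subunit, was 1.51-fold and 1.60-fold higher in B cell-like cells. In NK cell-like cells 0 members were 1.5-fold higher, and Rps3a1 led with 1.24 and 1.28.

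**Figure D3:**
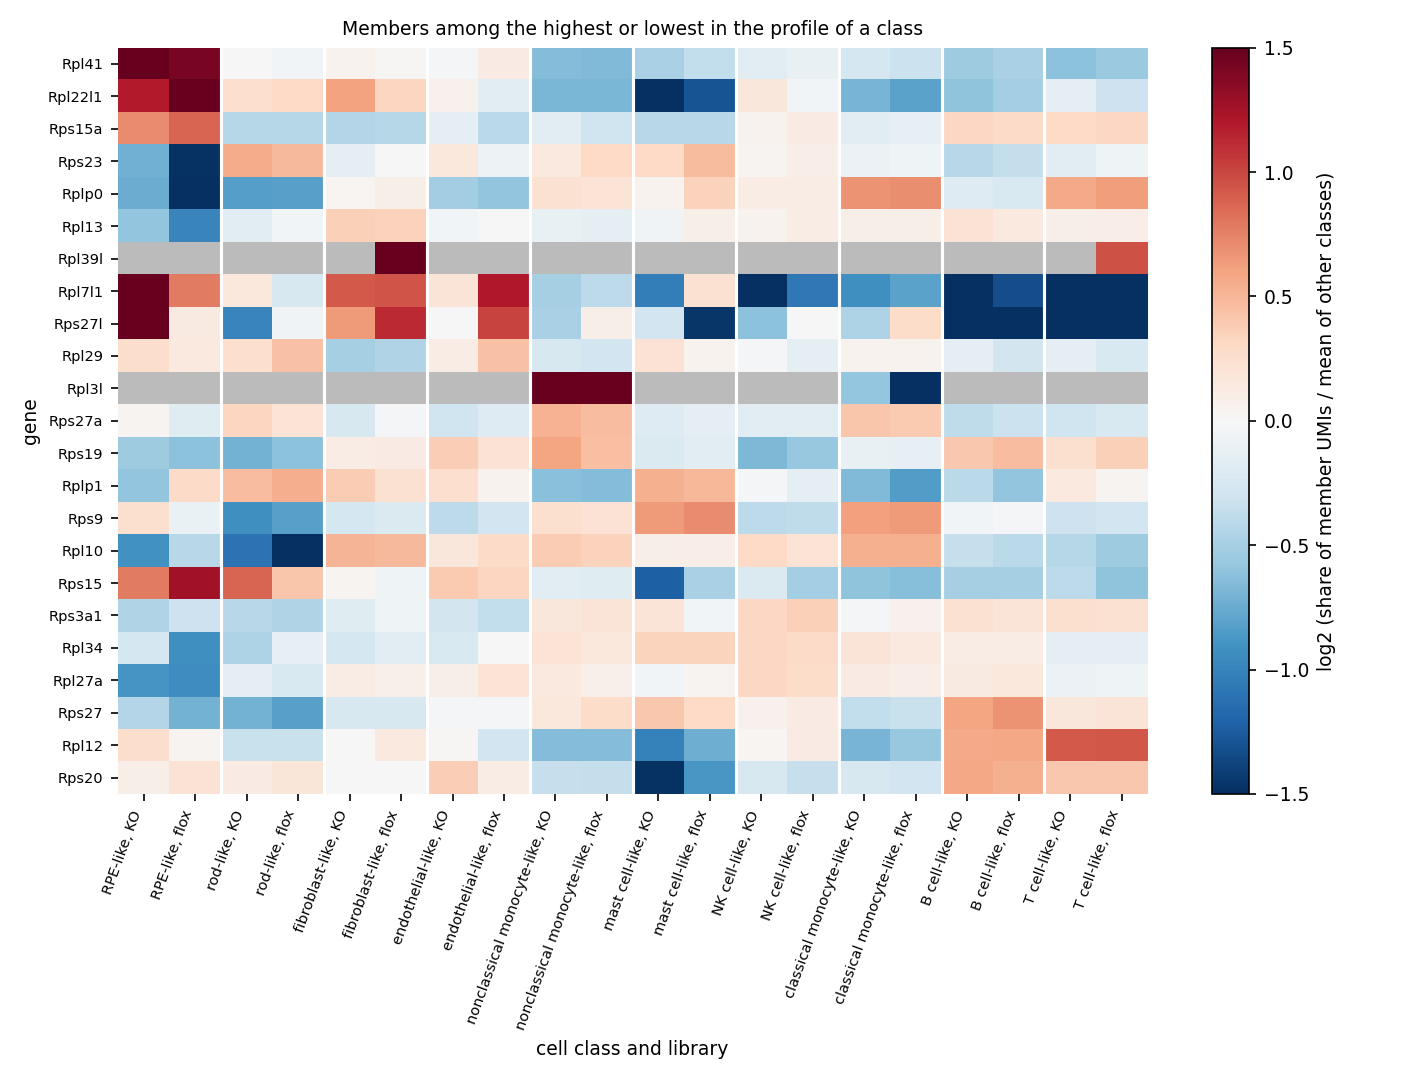
Members from among the 3 highest or lowest in the profile of a class (rows) in each class and library (columns, Tsc1 RPE KO left of Tsc1 flox), as log2 of the share of member UMIs over the mean of the other classes. Grey marks a member with 0 UMIs in the class or in the other classes, and colours end at 1.5 on the log2 scale. Rpl41 and Rpl22l1 are red in RPE-like cells of both libraries, and Rpl12 in T cell-like cells.

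Several subunits have a second gene, and their share of the pair varied by class. Shared 3′ sequence could blur such a split. The longest run that the last 300 bases of a copy shared with its partner was 17 bases for Rpl3l, 26 for Rpl22l1, 11 for Rps27l, 10 for Rpl7l1 and 38 for Rpl39l. Rps27rt, a copy outside the symbol rule, shared 271 bases with Rps27 and had 1237 and 870 UMIs. The level of Rps27 is therefore uncertain, and by how much was not tested.

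Rpl22l1 took a larger part of its pair in RPE-like cells than in the other classes. Rpl22 is a large subunit protein with a known role in lymphocyte development, and Rpl22l1 is its paralogue. In RPE-like cells Rpl22l1 and Rpl22 had 43 and 26 UMIs in Tsc1 RPE KO, and 15 and 8 in Tsc1 flox. Rpl22l1 was 62.3% (49.8 to 73.7) and 65.2% (42.7 to 83.6) of the pair, both intervals taking in 50%. The mixed barcode described with the genotypes gave 7 of the 43 Rpl22l1 UMIs and 11 of the 26 Rpl22 UMIs in Tsc1 RPE KO. In every other class with 10 or more cells per library it was the smaller of the pair, from 14.7% and 18.3% in mast cell-like cells to 41.2% and 38.4% in fibroblast-like cells. The RPE-like intervals did not overlap those of fibroblast-like cells in either library. At CPM scale Rpl22l1 stood at 373 and 467 in RPE-like cells and at 1225 and 1253 in T cell-like cells, whereas Rpl22 stood at 225 and 249 in RPE-like cells and at 2325 and 2428 in T cell-like cells.

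Rps27l, which p53 is known to induce, stayed at a low level while Rps27 climbed. It made up 1.45% and 0.970% of the pair in T cell-like cells, 1.20% and 0.926% in B cell-like cells, and 12.1% and 9.24% in fibroblast-like cells. Rps27 itself stood at 9647 and 11524 CPM in T cell-like cells, and in fibroblast-like cells at 1686 and 1988 CPM. In RPE-like cells Rps27l was split between the libraries, with 40 UMIs in 23 of 45 Tsc1 RPE KO cells and 2 UMIs in 2 of 12 Tsc1 flox cells. The CPM ratio was 5.56 with a counting interval of 1.44 to 47.5. Its total of UMIs lay under the minimum of 50 used for the comparison of genotypes.

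Rpl7l1, a nucleolar relative of Rpl7, showed little of the ladder. In T cell-like cells it stood at 51.4 and 44.9 CPM, where Rpl7 stood at 2547 and 2532 CPM. Fibroblast-like cells had 68.7 and 62.0 CPM of Rpl7l1, where Rpl7 stood at 766 and 727 CPM. Rpl39l, a relative of Rpl39 known from male germ cells, had 4 and 3 UMIs in fibroblast-like cells and 0 and 5 in T cell-like cells, and 0 in the other 8 classes.

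Rpl3l marked nonclassical monocyte-like cells. This paralogue of Rpl3, a large subunit protein near the peptidyl transferase centre, is best known from heart and skeletal muscle. It had 212 UMIs in 141 of 439 such cells (32.1%, 27.8 to 36.7) in Tsc1 RPE KO and 50 UMIs in 32 of 88 (36.4%, 26.4 to 47.3) in Tsc1 flox. All other cells together held 9 and 3 UMIs, all in classical monocyte-like cells. Those 9 and 3 UMIs came to 7.07 and 2.39 CPM. Rpl3l made up 5.73% (5.00 to 6.53) and 7.19% of the Rpl3 pair in nonclassical monocyte-like cells, so Rpl3 remained the main copy.

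Both clusters of that class carried it. Cluster 4 held 86.5 and 96.8 CPM, with a UMI in 35.2% and 43.3% of cells, and cluster 7 held 77.9 and 90.4 CPM, with a UMI in 27.5% and 32.8% of cells. Free RNA held 24.5 and 5.66 CPM. Outside the monocyte-like classes the share of cells with a UMI was 0, for example 0 of 374 and 0 of 340 T cell-like cells. Those T cell-like cells had median depths of 5077.5 and 5616 UMIs. The part of free RNA in these counts was not tested. The nonclassical monocyte-like cells had median depths of 5426 and 5817 UMIs.

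The Rpl3l gene lies at chr17:24727820-24736143 on the plus strand of GRCm38, and no other gene of the deposited list overlaps it. The next gene on that strand, Msrb1, a methionine sulfoxide reductase, begins 499 bases further on. Msrb1 stood at 1402 and 1058 CPM in cluster 4 and at 1456 and 1215 CPM in cluster 7. In classical monocyte-like cells Msrb1 stood at 946 and 825 CPM while Rpl3l stood at 7.07 and 2.39 CPM. Whether transcripts that run on between these neighbours were counted was not tested. Over the mean levels of 19 clusters the genes most like Rpl3l were Lilra5 (Pearson r 0.992), Tgm3 (0.980), Gm16120 (0.979), Trem1 (0.977) and Fpr1 (0.976), out of 12070 genes compared. Lilra5, Trem1 and Fpr1 are receptors of myeloid cells.

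**Figure D4:**
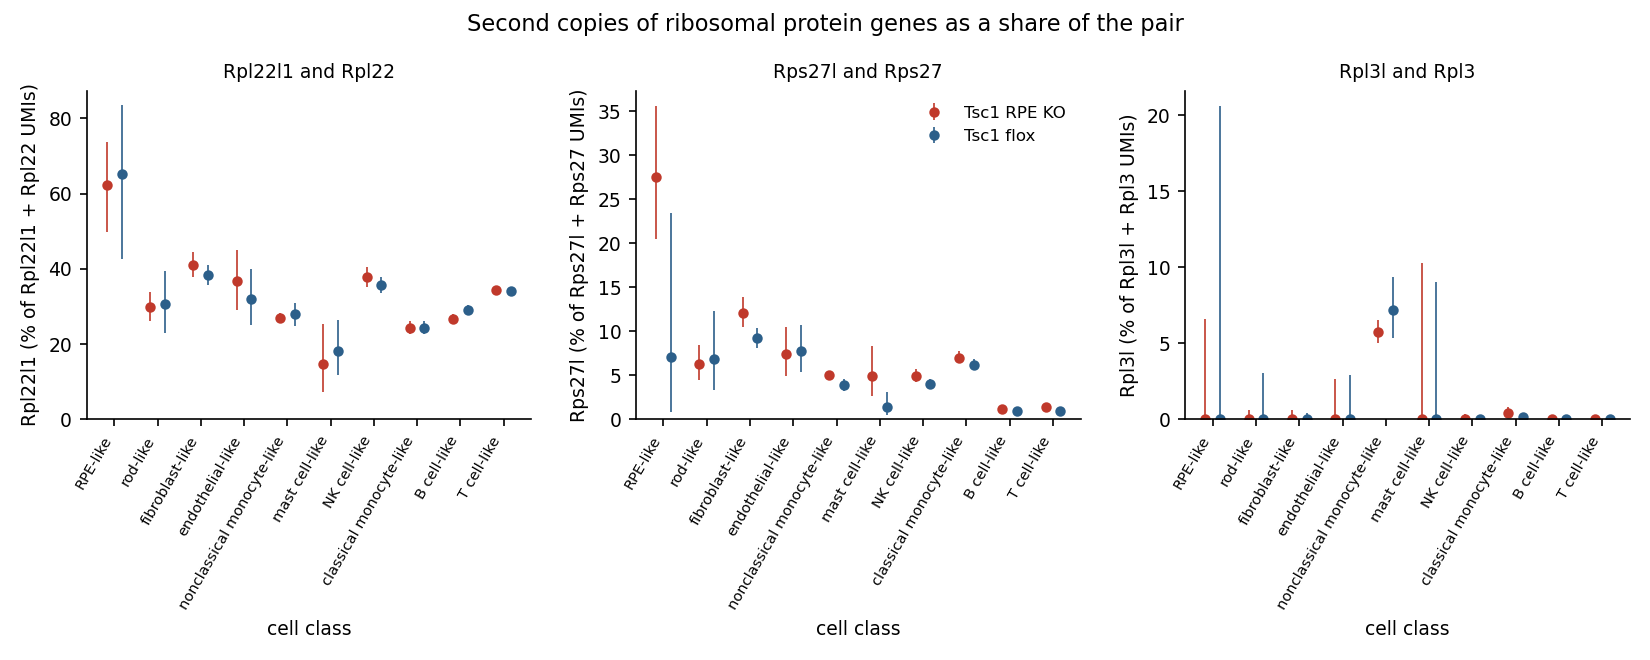
Share of a second copy in the UMIs of the pair (percent, vertical axes) by cell class (horizontal axes), for Rpl22l1 with Rpl22, Rps27l with Rps27 and Rpl3l with Rpl3, Tsc1 RPE KO left and Tsc1 flox right in each pair. Bars are exact 95% counting intervals. Rpl22l1 lies above 60% in RPE-like cells, and Rpl3l above 5% in nonclassical monocyte-like cells.

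Other genes of the translation apparatus followed the ladder to unequal degrees. The 4 ribosome components whose names the symbol rule does not take summed to 0.187% and 0.212% of UMIs in RPE-like cells and to 1.44% and 1.57% in T cell-like cells. Fau, which encodes a small subunit protein fused to a ubiquitin-like domain, stood at 1136 and 1309 CPM in RPE-like cells, against 10772 and 10348 CPM in B cell-like cells. The 14 elongation factors and TOP partners summed to 0.490% and 0.502% in RPE-like cells and to 2.12% and 2.19% in T cell-like cells. Eef1a1, which brings charged tRNA to the ribosome, stood at 1552 and 1838 CPM in RPE-like cells and at 5843 and 6013 CPM in T cell-like cells. Tpt1, a TOP mRNA of high abundance, stood at 1292 and 841 CPM in RPE-like cells and at 7543 and 7694 CPM in T cell-like cells.

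Initiation factors, biogenesis factors and mitochondrial ribosomal proteins did not have that spread. The 27 initiation factors summed to 0.402% and 0.433% in RPE-like cells and to 0.746% and 0.734% in T cell-like cells. The 35 ribosome biogenesis genes summed to 0.102% and 0.0872% in RPE-like cells and to 0.237% and 0.240% in T cell-like cells. The 78 genes for proteins of the mitochondrial ribosome had the opposite order, with 0.629% and 0.679% in RPE-like cells, the highest class in each library, and 0.451% and 0.433% in T cell-like cells.

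The comparison of genotypes asked whether ribosomal protein mRNAs differed where Best-Cre was present. In RPE-like cells the share in Tsc1 RPE KO was 1.04 times (0.983 to 1.11) that in Tsc1 flox, from 45 and 12 cells. A single Tsc1 RPE KO barcode decided the side. It held 31 UMIs of leukocyte markers, 8.67% of the UMIs of the Tsc1 RPE KO RPE-like cells and a ribosomal protein share of 11.96%. It gave 1197 of the 5343 ribosomal protein UMIs of these cells. Without it the shares were 3.94% and 4.44%, a ratio of 0.886 (0.834 to 0.941). The median RPE-like cell held 3.77% in Tsc1 RPE KO and 4.55% in Tsc1 flox with that barcode included.

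The share also differed between the libraries in classes other than RPE-like cells, the cells to which the labels assign Best-Cre. The ratio was 0.937 (0.934 to 0.940) in T cell-like cells, 1.04 (1.04 to 1.05) in B cell-like cells, 0.935 in fibroblast-like cells, 0.953 in classical monocyte-like cells and 1.03 in nonclassical monocyte-like cells. In T cell-like cells it was 0.997 in cluster 5 and 1.02 in cluster 8, but 0.869 in cluster 10 and 0.926 in cluster 12. Rod-like cells had a ratio of 0.873 (0.852 to 0.895), with 1.05 (1.02 to 1.09) in cluster 9 and 0.884 (0.844 to 0.926) in cluster 15. These intervals leave out the spread between mice, so none of these differences can be set against replicate error.

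Of the 83 members, 64 had the 50 UMIs over both libraries needed in RPE-like cells. In Tsc1 RPE KO 10 were at least 1.5-fold higher (15.6% of members, against 18.2% of 373 genes measured) and 6 at least 1.5-fold lower (9.38%, against 9.92%). Both shares lay near the background. Rps4x, an X-linked gene of the small subunit, had 63 UMIs in Tsc1 RPE KO and 7 in Tsc1 flox, a ratio of 2.50 (1.15 to 6.48). The barcode with leukocyte markers gave 29 of the 63 Rps4x UMIs. Without it 0 of 51 measured members were 1.5-fold higher and 8 were lower, where 14.7% and 13.2% of 334 genes were.

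The lower members in RPE-like cells included the stalk protein gene Rplp1, with 61 UMIs (529 CPM) in Tsc1 RPE KO and 31 UMIs (966 CPM) in Tsc1 flox. Its ratio was 0.548 (0.350 to 0.873), and 0.482 (0.301 to 0.781) without the mixed barcode. Rps12, a small subunit protein, had 35 and 20 UMIs and a ratio of 0.487 (0.273 to 0.890), and had under 50 UMIs without the mixed barcode. Rps29, a small zinc-binding protein of the small subunit, had 128 and 52 UMIs and a ratio of 0.685 (0.493 to 0.965), and 0.621 (0.442 to 0.883) without that barcode.

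The ratio of Rps29 was below 1 in other classes too. It lay between 0.685 there and 0.961 in mast cell-like cells, with the interval below 1 in 9 of 10 classes, for example 11734 and 13765 CPM in T cell-like cells (0.852, 0.838 to 0.867). Rps27 had its interval below 1 in 6 of 10 classes and Rps28, another small subunit protein, in 7 of 10. Among all measured members, 52 of 80 had intervals below 1 in T cell-like cells and 31 of 80 in classical monocyte-like cells. The count was 20 of 80 in fibroblast-like, 20 of 79 in rod-like and 10 of 80 in NK cell-like cells. It was 9 of 80 in B cell-like, 7 of 81 in nonclassical monocyte-like and 5 of 79 in endothelial-like cells. In RPE-like cells it was 3 of 64, and in mast cell-like cells 3 of 75. All classes come from the same pair of libraries, so they do not repeat the comparison. Rps2 and Rps3a1 were among the highest, with Rps2 at 1.28 (1.18 to 1.40) in nonclassical monocyte-like cells and Rps3a1 at 1.17 (1.14 to 1.21) in B cell-like cells.

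Outside RPE-like cells few members passed 1.5-fold. In 6 classes 0 measured members did in either direction. The shares of all genes past 1.5-fold, higher and then lower, were 4.39% and 6.61% in fibroblast-like cells, 10.7% and 6.64% in nonclassical monocyte-like cells and 4.58% and 5.03% in classical monocyte-like cells. They were 3.62% and 5.32% in NK cell-like cells, 2.66% and 4.05% in B cell-like cells and 4.58% and 2.37% in T cell-like cells. In rod-like cells 0 of 79 members were higher, against 17% of 2712 genes, and 3 were lower, Rpl35 and Rps12 among them, against 6.38%. In endothelial-like cells 0 of 79 were higher, against 7.28% of 1292 genes, and 1 was lower, against 8.98%. In mast cell-like cells Rpl24 of 75 was higher, against 5.48% of 310 genes, and Rpl23a and Rps15 were lower, against 9.68%. The members named here were chosen because they passed 1.5-fold, after their values were seen.

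**Figure D5:**
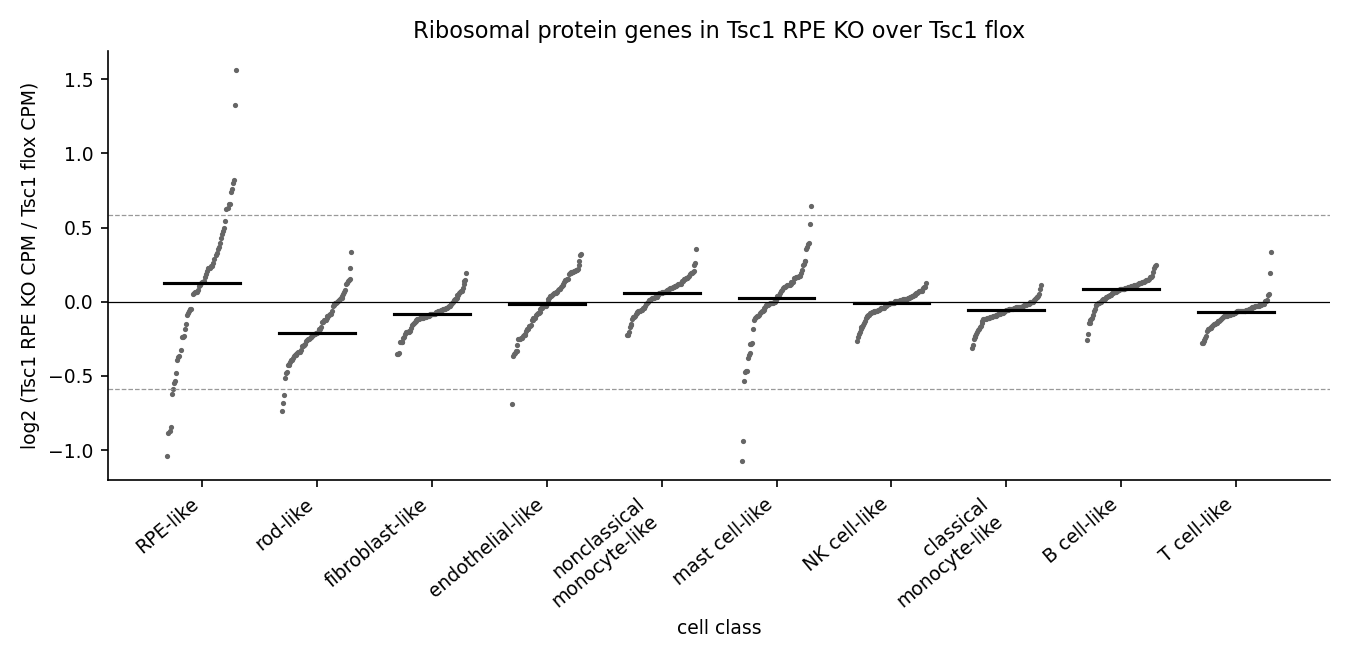
Log2 ratio of CPM in Tsc1 RPE KO over Tsc1 flox (vertical axis) for each measured ribosomal protein gene (points, sorted within a class) by cell class (horizontal axis). Black bars are medians, and dashed lines mark 1.5-fold in each direction. Points spread widely in RPE-like cells, the class of fewest UMIs, and lie close to 0 in classes with many cells.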

How the data were processed

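The deposited values were raw UMI counts per gene and barcode in 2 libraries, without a barcode filter, as the files themselves show. Cell Ranger 2.1.1 and mm10 stand in the submitters' processing notes, while the matrix files carry a header of version 4. Which version gave the counts is not settled. Counts of genes with near-identical copies can be uncertain, and by how much was not tested. Copies outside the symbol rule, such as Rpl9-ps6 (378 and 292 UMIs) and Rpl10-ps3 (261 and 207 UMIs), were counted apart. The library totals were 12574364 UMIs for Tsc1 RPE KO and 10771118 UMIs for Tsc1 flox.

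Barcodes were kept as cells above 10% of the 99th percentile among the 3000 largest (1373.6 and 1487.4 UMIs), with at least 200 genes and at most 20% mitochondrial UMIs. Scrublet, in scanpy 1.11.5, removed 23 and 7 doublets. The 2000 most variable genes, members left out, gave 30 principal components, 20 neighbours and clusters by leidenalg 0.10.2 at resolution 1. Clusters were named from marker lists.

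Counts were summed per class and library and scaled to CPM. Shares have exact Clopper-Pearson intervals, CPM exact Poisson intervals and ratios exact conditional binomial intervals (scipy 1.17.1). The ratio intervals, for RPE-like and T cell-like cells, and the share intervals were tested on simulated counts that held counting error only. Cell calling, doublet removal, clustering, naming and the removal of free RNA were not simulated. Positions came from GENCODE M21, which matched all 83 members. Genes were named by a rule: highest and lowest members over all cells, per class and per genotype ratio, ranked by the interval bound nearest to 1, all second copies, Rps6, Rpsa and the stalk genes, and up to 4 genes of each related list. The members, marker lists and gene lists were chosen with earlier results of these data known. Alternatives changed the cell minimum, doublets, clustering, free RNA, scaling and the UMI filter. Some genes that the rule names are not reported here.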

Additional observations from a re-analysis of the deposited data

Results flagged for a closer look

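The ratio between the libraries lay on opposite sides of 1 in 2 lymphocyte classes. The share of UMIs from ribosomal protein genes in Tsc1 RPE KO was 1.04 times that in Tsc1 flox in B cell-like cells, and 0.937 times in T cell-like cells. In T cell-like clusters 5 and 8 it was 0.997 and 1.02 times, and in clusters 10 and 12 it was 0.869 and 0.926 times. Clusters 5 and 8 held 230 Tsc1 RPE KO and 240 Tsc1 flox cells, and clusters 10 and 12 held 144 and 100. None of these differences was tested, since each genotype is 1 library. Barcodes left out for having under 200 genes, 68 and 55 of them, still held ribosomal protein UMIs, at 0.178% in Tsc1 RPE KO and 0.205% in Tsc1 flox. That was far below any class of 10 or more cells per library. Erythroid-like cells, outside those classes, held 3.39% in Tsc1 RPE KO (2 cells) and 0.251% in Tsc1 flox (10 cells). What the left-out barcodes held was not tested further.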

How the results depend on the processing

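RPE-like cells stayed lowest and T cell-like cells highest in the share of UMIs from ribosomal protein genes in both libraries under every alternative tried. Alternatives are given as moved where the value left the counting interval, which is narrow. With free RNA subtracted at 10% the shares in Tsc1 RPE KO and Tsc1 flox became 3.47% and 3.01% in RPE-like, 5.00% and 5.67% in rod-like, 6.69% and 7.02% in fibroblast-like, 6.80% and 6.72% in endothelial-like, 30.8% and 29.2% in B cell-like, 34.9% and 37.0% in T cell-like and 18.99% and 19.1% in NK cell-like cells. It became 17.4% (Tsc1 flox) in mast cell-like, 15.9% (Tsc1 flox) in nonclassical and 19.5% (Tsc1 RPE KO) in classical monocyte-like cells. With doublets kept it was 5.05% in RPE-like, 6.86% in rod-like and 16.4% in mast cell-like cells (Tsc1 RPE KO), 7.68% and 8.14% in fibroblast-like and 18.7% and 19.4% in classical monocyte-like cells, and 28.5% in B cell-like cells (Tsc1 flox). With at least 1000 UMIs it was 4.44% in RPE-like and 7.39% in endothelial-like cells (Tsc1 RPE KO), 6.63% in rod-like, 7.48% in fibroblast-like and 16.1% in nonclassical monocyte-like cells (Tsc1 flox), 19.1% and 19.6% in classical monocyte-like and 29.5% and 28.3% in B cell-like cells. That classical monocyte-like class held 46 and 62 cells, against 131 and 121 with the main minimum, beside an unnamed cluster of 89 and 60 cells led by Cd209d and, among others, Clec10a, Flt3 and Cd209a, so the shares are not of the same cells. Under a marker gate per barcode it was 6.11% in rod-like, 15.5% in mast cell-like and 18.3% in NK cell-like cells (Tsc1 RPE KO), 7.09% in fibroblast-like cells (Tsc1 flox), 6.998% and 8.08% in endothelial-like and 36.8% and 37.3% in T cell-like cells; 5 class shares could not be had there. At resolution 2 it was 16.6% and 16.1% in nonclassical and 18.3% and 19.3% in classical monocyte-like cells. With members allowed among the variable genes, of which 0 were chosen, it was 16.7% and 19.5% in these classes (Tsc1 RPE KO). In alternatives added after seeing the data, forcing all members gave 7.86% in fibroblast-like cells (Tsc1 flox), 16.6% in nonclassical (Tsc1 RPE KO) and 18.5% and 19.5% in classical monocyte-like cells, and leaving out cluster 4 gave 17.3% and 16.9% in nonclassical monocyte-like cells. Without the barcode with 10 or more leukocyte UMIs, RPE-like cells held 3.94% in Tsc1 RPE KO.

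Counts of members past 1.5-fold in Tsc1 RPE KO over Tsc1 flox rest on few UMIs. In RPE-like cells 10 were lower with a minimum of 20 UMIs and 10 with 1 UMI in each library, 2 were lower with free RNA subtracted, and 0 were higher without the mixed barcode. In rod-like cells 6 were lower with free RNA subtracted. In endothelial-like cells 2 were lower with a minimum of 20 UMIs and 2 with 1 UMI in each library. In mast cell-like cells 2 were higher with a minimum of 20 UMIs, 3 with 1 UMI in each library and 2 with free RNA subtracted. With 1 UMI in each library 1 was higher in fibroblast-like and 1 in classical monocyte-like cells. Beyond the construction of each alternative, causes were not tested. No paired analysis was possible because each genotype has 1 library. Leaving out a library would leave no comparison.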
